A study of Mus musculus with 9 samples.

Results

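The genes described here are 36 interferon stimulated genes (ISGs), genes whose transcription is known to rise when type I interferon binds its receptor. The rule that chose them is a list of names and uses no measured value, but the names were chosen with earlier results of these data known. All 36 were matched to an Ensembl identifier among the 53801 genes counted in each library. Each had at least 10 counts over the 9 libraries, and all 36 entered every test. RNA was sequenced from cells sorted as CD11c-Ly6G-CD11b+CD45high, the gate used for monocytes and macrophages, from 9-week-old male C57BL/6J mice. The 3 stroke brain libraries (brain macrophages) and the 3 stroke blood libraries (blood monocytes) were made 5 days after dMCAO, a stroke model in which the distal branch of the middle cerebral artery and the left common carotid artery are closed for good. The 3 sham blood libraries came from sham-operated mice, for which the sources used here give no day. Each brain library pooled the cells of 5 mice and each blood library held the cells of 1 mouse, so the spread between brain libraries is one between pools. Brain cells came from dissociated ipsilesional hemispheres of perfused mice and blood cells from a Ficoll fraction, so tissue and cell preparation cannot be told apart.

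Type I interferons (interferon alpha and beta) bind a receptor made of *Ifnar1* and *Ifnar2*, which activates the kinases *Jak1* and *Tyk2*. A complex that holds *Stat2* and *Irf9* then binds the interferon stimulated response element (ISRE) in the promoters of ISGs. Interferon gamma, which is made mostly by T and NK cells, uses another receptor with *Jak1* and *Jak2*, and acts through the gamma activated site (GAS). ISG products sense viral RNA, degrade it, block its translation or limit the signal itself, and groups of microglia and macrophages with high ISG levels are known from the injured brain.

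Many, but not all, of the promoters searched held the core of the ISRE. RefSeq windows from 250 bases before to 50 bases after the gene start (GRCm38.p6) were matched for 26 of the 36 members. The ISRE core, searched as GAAANNGAAA on the strand of the gene or as TTTCNNTTTC, was found in 18 of these 26, and in 3.99% of the 27025 genes with such a window. The GAS core, TTCNNNGAA, which reads the same on both strands, was found in 7 of the 26 and in 9.55% of all genes. For both motifs, overlapping matches on either strand were counted once per gene. The stretches below lie before the gene start and show, in capitals, the ISRE cores of 3 members that did not pass the test between brain and stroke blood (*Isg15*, *Ifit1* and *Ifit3*) and of 2 that were lower in the brain (*Oas3* and *Trim30a*), followed by 3 members that passed the test but held no match in their window (*Xaf1*, *Ifi44* and *Oasl1*). They are written 5′ to 3′ on the strand of the gene. *Isg15* was read from chr4:156200819-156200918 (minus strand), *Ifit1* from chr19:34640759-34640858 (plus), *Ifit3* from chr19:34583349-34583448 (plus), *Oas3* from chr5:120777670-120777769 (minus), *Trim30a* from chr7:104465194-104465293 (minus), *Xaf1* from chr11:72301529-72301628 (plus), *Ifi44* from chr3:151749962-151750061 (minus) and *Oasl1* from chr5:114923104-114923203 (plus).
Isg15: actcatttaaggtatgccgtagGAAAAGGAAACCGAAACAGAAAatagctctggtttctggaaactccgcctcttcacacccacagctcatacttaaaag
Ifit1: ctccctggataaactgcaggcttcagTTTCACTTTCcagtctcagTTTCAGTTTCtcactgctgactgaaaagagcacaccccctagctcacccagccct
Ifit3: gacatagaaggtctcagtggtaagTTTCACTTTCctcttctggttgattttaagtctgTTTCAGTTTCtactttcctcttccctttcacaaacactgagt
Oas3: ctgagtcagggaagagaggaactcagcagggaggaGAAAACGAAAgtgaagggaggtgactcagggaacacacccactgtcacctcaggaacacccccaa
Trim30a: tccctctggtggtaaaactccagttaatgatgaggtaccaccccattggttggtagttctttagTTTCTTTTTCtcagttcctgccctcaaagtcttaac
Xaf1: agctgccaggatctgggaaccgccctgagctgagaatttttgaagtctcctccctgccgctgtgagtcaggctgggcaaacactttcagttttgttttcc
Ifi44: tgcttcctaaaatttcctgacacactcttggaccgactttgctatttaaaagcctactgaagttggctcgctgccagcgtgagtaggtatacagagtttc
Oasl1: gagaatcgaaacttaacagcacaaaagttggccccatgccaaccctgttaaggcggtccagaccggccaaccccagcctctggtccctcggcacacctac
*Isg15* held 3 overlapping cores, *Ifit1* and *Ifit3* held 2 separate ones each, and *Oas3* and *Trim30a* held 1. A match describes letters only, and a window without one says nothing of binding elsewhere.

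Libraries held between 18475118 and 22623578 counts, and levels are given as counts per 1000000 counts of the library (CPM). Whether groups overlap was judged on these CPM, which do not hold the TMM scaling used in the test. The summed level of the 6 classical monocyte markers was 14708 to 32515 CPM in sham blood, 10608 to 13560 CPM in stroke blood and 5116 to 6140 CPM in the brain. The 9 microglia markers summed to 427 to 735 CPM in blood and to 1734, 2814 and 4673 CPM in brain libraries 1, 2 and 3, and *Sall1*, which defines microglia, was at 0 in all blood libraries and between 6.63 and 21.8 CPM in the brain. Of these 9 markers 8 passed the test as higher in the brain than in stroke blood and all 6 monocyte markers as lower. The 8 T and NK cell markers summed to 643 to 1266 CPM in the brain and 270 to 821 CPM in stroke blood. The 6 conventional dendritic cell markers summed to 88.9 to 219 CPM in stroke blood and 663 to 879 CPM in the brain, and 5 of the 6 passed as higher there. Of the 6 platelet markers 5 were lower, with sums of 38.3 to 84.2 CPM in the brain against 289 to 343 CPM in stroke blood. Erythroid transcripts summed to 925 to 27660 CPM in blood and to 3.57 to 12.4 CPM in the brain. The part of these cells in any ISG difference between brain and blood was not tested. In bulk samples, fewer cells of a type and less RNA per cell cannot be told apart.

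Within every group the level of the ISGs spanned more than 3 orders of magnitude when counts were set against exon length. *Ifi27l2a*, which encodes a small mitochondrial membrane protein, was the highest in each group, at 2227 ± 468 (SD, n = 3) CPM per kilobase of exon (FPKM) in sham blood, 3146 ± 1390 FPKM in stroke blood and 1733 ± 373 FPKM in the brain. *Bst2*, which encodes tetherin, a protein that holds budding virus at the cell surface, and *Oas1a* followed in each group, *Bst2* at 145 ± 21.7 FPKM in stroke blood and 155 ± 25.9 FPKM in the brain. Lowest in both blood groups was *Ifi44*, at 0.359 ± 0.262 FPKM in sham and 0.413 ± 0.163 FPKM in stroke blood, with *Gbp4* next to it. In the brain *Gbp5* was lowest, at 0.876 ± 0.052 FPKM.

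**Figure D1:**
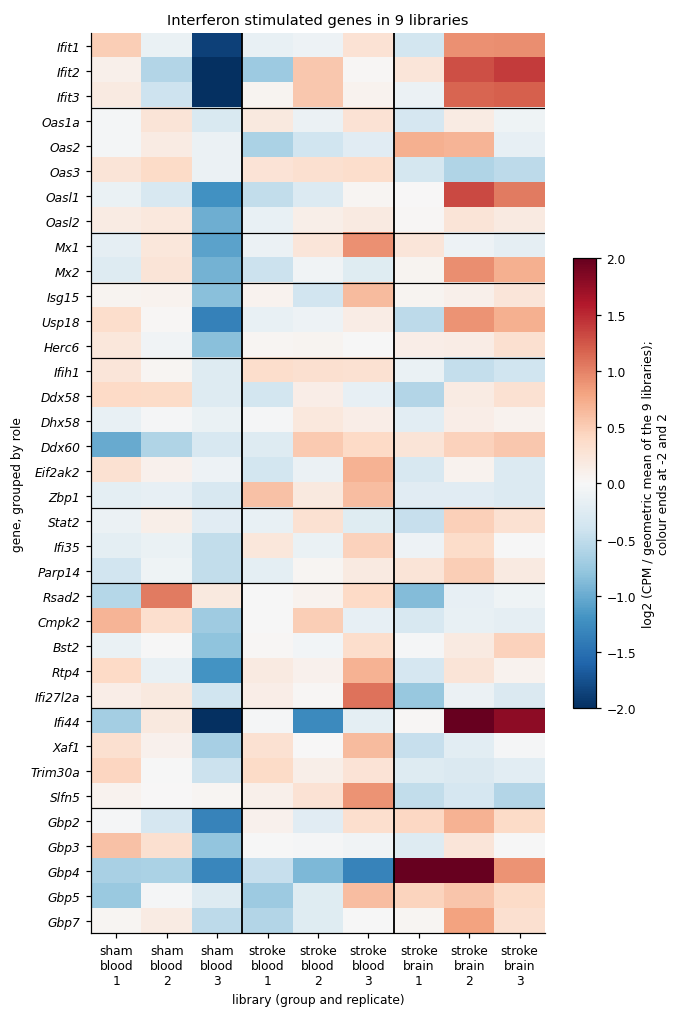
Level of the 36 ISGs in the 9 libraries, each row a gene and each column a library. Colour gives the log2 ratio of the CPM to the gene's geometric mean over the libraries, and horizontal lines part the functional groups. Sham blood 3 is blue in most rows, Gbp4 is red in the 3 brain libraries and Ifi44 in brain libraries 2 and 3, and most other rows show no common colour for the brain.

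Brain macrophages and blood monocytes of stroke mice differed in 10 of the 36 ISGs, and the 10 did not move one way. At an adjusted p below 0.05 in edgeR's quasi-likelihood test, 3 members were higher in the brain (*Gbp4*, *Ifi44* and *Oasl1*) and 7 were lower (*Slfn5*, *Ifi27l2a*, *Oas3*, *Zbp1*, *Ifih1*, *Xaf1* and *Trim30a*). Among all 13189 genes tested, 17.5% were higher and 13.1% lower, 30.6% in all. With a log2 fold change above 1 as well, 2 members were upregulated DEGs (*Gbp4* and *Ifi44*) and 2 downregulated (*Slfn5* and *Ifi27l2a*), against 13.1% and 7.86% of all genes. The median log2 fold change was -0.05 over the members and 0.06 over all genes tested. The fitted fold change was above 0 in 16 of the 36 members, against 53.1% of all genes, and 14 had an unadjusted p below 0.05, against 42.2%. By CPM, the 3 brain libraries lay above the 3 stroke blood libraries in 7 members and below them in 8, against 31.9% and 17.3% of all genes. The TMM factors of the test were 0.925 to 0.961 in stroke blood and 1.05 to 1.07 in the brain. Scaling by them lowers brain levels and raises stroke blood levels, so narrow gaps with the brain above may close. Of the 26 members that did not pass, 15 had a 95% interval within 2-fold in either direction and 11 an interval reaching past it.

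The balance of the passing members moved with the scaling and with single libraries. With library size only, 4 passed as higher and 5 as lower (44.4% higher against 30% here), and with upper quartile normalization 2 and 9 (18.2%). These scalings put the median of all genes at 0.22 and -0.09. Under each of the 3 scalings the members' median lay 0.11 to 0.12 below that of all genes. A change of scaling moves all genes nearly alike, so this gap could hardly change with it. When a library was left out, the members' median minus that of all genes ranged from -0.22 (without stroke blood 1) to -0.01 (without brain library 1). DESeq2 called 4 as higher and 8 as lower, with *Ifit2* and *Rsad2* beside the 10. *Gbp4*, *Slfn5*, *Oas3*, *Zbp1*, *Ifih1* and *Trim30a* passed whichever library was left out. *Ifi27l2a* passed in 3 of these 6 fits, *Xaf1* in 2, and *Ifi44* and *Oasl1* in 1 each. Without brain library 1, 7 members were higher (*Ifit1*, *Ifit2*, *Ifit3* and *Usp18* joined *Gbp4*, *Ifi44* and *Oasl1*) and 5 lower. Without stroke blood 1, 2 or 3, or without brain library 2, 1 member was higher, and without brain library 3, 2 were.

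**Figure D2:**
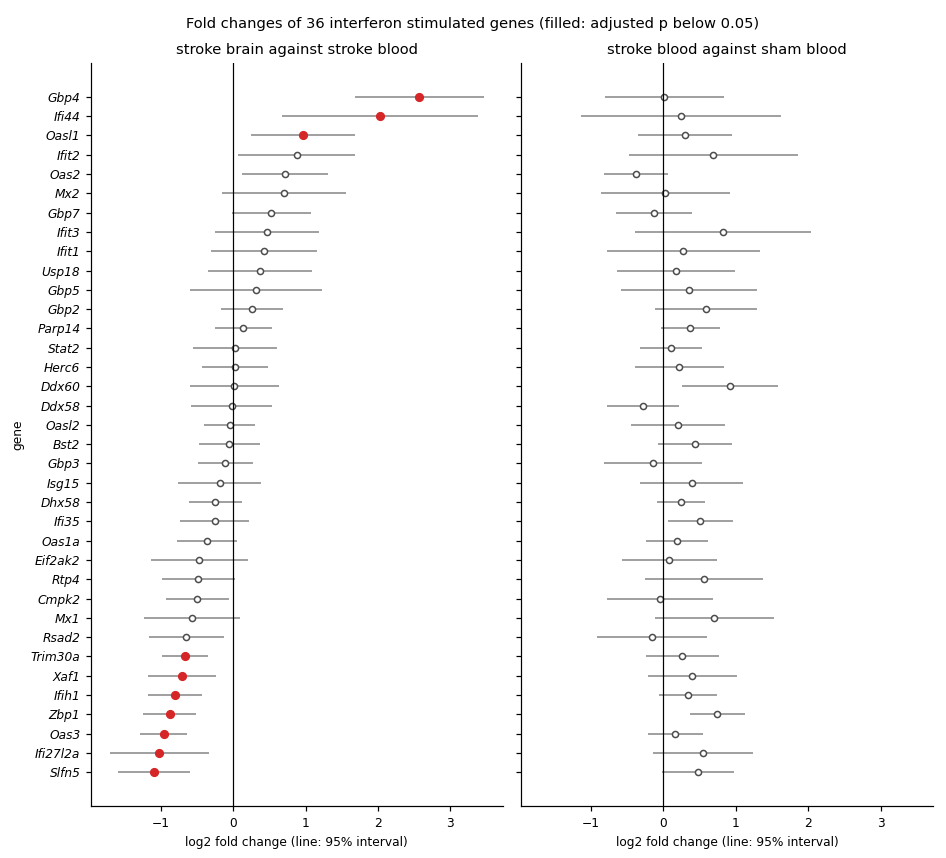
Log2 fold change (x axis) of each ISG (y axis) with its 95% interval, for brain against stroke blood on the left and stroke blood against sham blood on the right. The comparisons share the stroke blood libraries. Filled points passed at an adjusted p below 0.05. On the left 3 filled points lie above 0 and 7 below, and on the right no point is filled.

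Guanylate-binding proteins are GTPases that attack the membranes of intracellular pathogens and respond strongly to interferon gamma. Of the 5 members, 1 passed, *Gbp4*, which lies on chromosome 5 from 105115767 to 105139586 on the minus strand (GRCm38). It stood at 4.44, 3.29 and 2.43 CPM in stroke blood libraries 1 to 3 and at 28.1, 27.8 and 11.4 CPM in the brain libraries. All brain libraries lay above all blood libraries, and the log2 fold change was 2.57 (SE 0.40, adjusted p = 0.0015). Of its 75-base words 3.08% also occur in other genes. Its exons share 61 bases with *Gbp8* and 60 with *Gbp9* on the same strand, and these neighbours, named for that overlap, had log2 fold changes of 2.21 (adjusted p = 0.011) and 0.45 (adjusted p = 0.171). *Gbp2* stood at 88.0, 70.4 and 105 CPM in stroke blood and at 110, 133 and 107 CPM in the brain. The groups did not overlap by CPM, but *Gbp2* did not pass (log2 fold change 0.26, SE 0.19, adjusted p = 0.344). *Gbp7* likewise did not overlap (39.6 to 59.6 CPM against 61.1 to 105 CPM) and did not pass (0.52, adjusted p = 0.134), and 637 bases of its exons lie over a processed pseudogene, *Gm43802*, on the same strand, so its counts are uncertain. The exons of *Gbp2* share 24 bases with a microRNA gene on the opposite strand. For *Gbp3* and *Gbp5* the groups overlapped, with log2 fold changes of -0.11 and 0.31. Of the 75-base words of *Gbp3*, 2.06% also occur in *Gbp7*.

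Oligoadenylate synthetases bind double-stranded RNA and make the oligoadenylates that activate RNase L. The 5 members of the family differed among themselves, with 1 higher, 1 lower and 3 that did not pass. *Oas3*, which favors long RNA, stood at 204, 211 and 215 CPM in stroke blood and at 132, 111 and 117 CPM in the brain. The groups did not overlap, and *Oas3* was lower in the brain by a log2 fold change of -0.96 (SE 0.14, adjusted p = 0.0013). Its neighbor on chromosome 5, *Oas2*, stood at 14.9, 17.3 and 19.6 CPM in stroke blood and at 37.7, 36.9 and 20.5 CPM in the brain. These groups did not overlap by CPM either, but the difference did not pass (0.72, SE 0.27, adjusted p = 0.0688). *Oas2* passed as higher with library size only (adjusted p = 0.0331) and without brain library 3 (adjusted p = 0.0245). *Oasl1*, which is known to hold back the translation of *Irf7*, stood at 22.6, 26.2 and 32.5 CPM in stroke blood and at 31.9, 79.4 and 65.2 CPM in the brain. Brain library 1 fell within the range of stroke blood, and *Oasl1* was higher in the brain by 0.96 on the log2 scale (SE 0.32, adjusted p = 0.047). It passed only narrowly, with adjusted p values of 0.0504 to 0.0789 under 4 other settings of the filter, the scaling or the samples fitted, and its exons overlap an antisense transcript by 38 bases. *Oas1a* and *Oasl2* gave -0.36 and -0.05, and 47.6% of the 75-base words of *Oas1a* also occur in *Oas1g*, so its counts are uncertain.

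The 3 Ifit genes, whose tetratricopeptide proteins bind viral RNA and keep it from being translated, lay within a single stretch of chromosome 19 and were ordered alike in the brain, with library 1 lowest. *Ifit1* stood at 37.5, 38.7 and 50.5 CPM in stroke blood and at 32.0, 78.5 and 78.8 CPM in the brain. *Ifit2* stood at 32.1, 77.4 and 54.0 CPM in stroke blood and at 63.2, 130 and 140 CPM in the brain. Of the 75-base words of *Ifit1*, 5.19% also occur in *Ifit1bl2*, and of those of *Ifit3*, 41.1% occur in *Ifit3b*. *Ifit3* stood at 44.8, 62.4 and 45.2 CPM in stroke blood and at 39.4, 95.8 and 97.9 CPM in the brain. In each gene brain libraries 2 and 3 lay above every stroke blood library and brain library 1 lay among or below them. None passed: the log2 fold changes were 0.42 (SE 0.32, adjusted p = 0.353), 0.88 (SE 0.36, adjusted p = 0.0946) and 0.46 (SE 0.32, adjusted p = 0.305). Without brain library 1 they were 0.75 (adjusted p = 0.0208), 1.17 (adjusted p = 0.0212) and 0.79 (adjusted p = 0.0156), in the order *Ifit1*, *Ifit2* and *Ifit3*. With all libraries kept, *Ifit2* passed with DESeq2 (adjusted p = 0.0406), no filter (0.0453) and the replicate block (0.0117), and *Ifit1* and *Ifit3* did not.

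Of the 6 sensors of nucleic acid, 2 were lower in the brain than in stroke blood and 4 did not pass. *Zbp1*, which binds Z-form nucleic acid and can start necroptosis, stood at 230, 175 and 234 CPM in stroke blood and at 130, 131 and 127 CPM in the brain. It was lower without overlap, by a log2 fold change of -0.88 (SE 0.16, adjusted p = 0.0038). *Ifih1*, the helicase that detects long double-stranded RNA, stood at 59.7, 58.4 and 58.1 CPM in stroke blood and at 42.8, 33.8 and 35.4 CPM in the brain (-0.81, SE 0.17, adjusted p = 0.0061). *Ddx58*, which encodes RIG-I, ranged from 50.7 to 72.0 CPM and from 43.7 to 81.1 CPM, a log2 fold change of -0.02 with a 95% interval from -0.58 to 0.54. *Dhx58*, a helicase that tunes these sensors, gave -0.25, *Ddx60*, a helicase cofactor, gave 0.01, and *Eif2ak2*, the kinase PKR that halts translation, gave -0.47 (adjusted p = 0.262). The exons of *Dhx58* and *Eif2ak2* overlap genes on the opposite strand.

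Of the 5 effectors that act on nucleotides and membranes, 1 passed, as lower in the brain, and the fitted fold changes of all 5 were below 0. *Ifi27l2a* stood at 1127, 1045 and 2198 CPM in stroke blood and at 613, 951 and 843 CPM in the brain. The groups did not overlap, and the log2 fold change was -1.02 (SE 0.30, adjusted p = 0.0313). This size rested on stroke blood library 3, without which it was -0.60 (adjusted p = 0.0774). *Rsad2*, the antiviral enzyme viperin, stood at 129, 136 and 170 CPM against 71.0, 116 and 122 CPM and did not pass (-0.65, SE 0.23, adjusted p = 0.059). It passed as lower under 5 other settings: DESeq2, no filter, a mean of at least 50 counts, upper quartile normalization and the replicate block, with adjusted p values from 0.0279 to 0.0497. *Cmpk2*, a mitochondrial nucleotide kinase encoded beside *Rsad2*, did not pass either (-0.50, adjusted p = 0.0775). It passed as lower with upper quartile normalization (adjusted p = 0.0255) and without stroke blood 3 (adjusted p = 0.0473). *Bst2* stood at 116 to 153 CPM in stroke blood and at 119 to 165 CPM in the brain (-0.06, 95% interval -0.48 to 0.36, with a change of sign under library size only and without stroke blood 3 or brain library 1), and *Rtp4*, whose exons overlap a processed transcript, gave -0.48 (adjusted p = 0.134).

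The 4 members that were placed in no functional group all passed, against 30.6% of all genes. They are a remainder rather than a family, and none of the members in the next paragraph passed. The members were listed with earlier results of these data known, so this count is not a result about a group. Of the 4 members, 1 was higher in the brain and 3 were lower. *Slfn5*, a schlafen protein that acts in the nucleus, stood at 217, 248 and 377 CPM in stroke blood and at 145, 160 and 136 CPM in the brain. It was lower without overlap by -1.10 (SE 0.22, adjusted p = 0.0057), though 559 bases of its exons overlap *Slfn5os* on the opposite strand. *Trim30a*, known to restrain Toll-like receptor signaling, stood at 242, 201 and 226 CPM against 155, 153 and 162 CPM (-0.67, SE 0.14, adjusted p = 0.0078), and 4.98% of its 75-base words also occur in *Trim30d*. *Xaf1*, which opposes an inhibitor of caspases, stood at 112, 91.3 and 140 CPM against 65.9, 78.5 and 89.6 CPM (-0.71, SE 0.21, adjusted p = 0.0293). Both were lower in the brain without overlap, *Xaf1* by a narrow gap. *Ifi44*, a cytoplasmic protein of the antiviral response, stood at 3.28, 1.39 and 2.91 CPM in stroke blood and at 3.41, 19.4 and 11.6 CPM in the brain. It was higher by 2.03 on the log2 scale (SE 0.60, adjusted p = 0.0305), with brain library 1 just above the highest stroke blood library. Without brain library 2 it was 1.42 (adjusted p = 0.125).

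**Figure D3:**
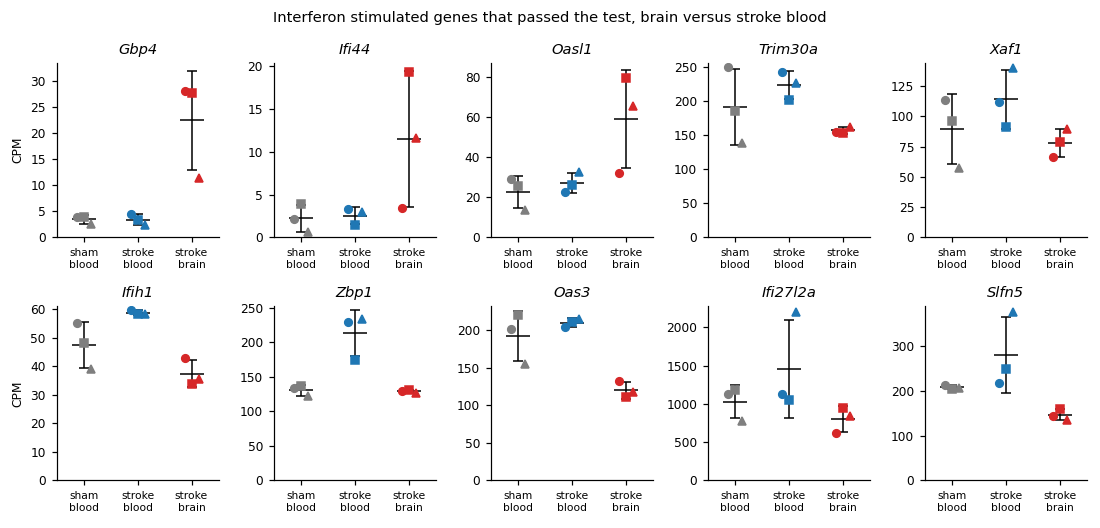
CPM (y axis, from 0) of the 10 ISGs that passed between brain and stroke blood, in the 3 groups (x axis). Circles, squares and triangles are replicates 1, 2 and 3, and bars are the mean ± SD. In Gbp4 all brain libraries lie above 10 CPM and all blood libraries below 5 CPM, and in Zbp1 brain and sham blood lie together below stroke blood.

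The remaining members, the dynamin-like GTPases, the ISG15 system and the group of transcription and its cofactors, held no gene that passed. *Isg15*, the ubiquitin-like modifier that names the system, stood at 59.9, 43.7 and 88.5 CPM in stroke blood and at 59.4, 61.5 and 67.3 CPM in the brain (-0.19, 95% interval -0.76 to 0.38). *Usp18*, which removes *Isg15* from proteins and damps the receptor, stood at 72.6, 75.6 and 89.4 CPM and at 56.1, 151 and 133 CPM (0.36, adjusted p = 0.421), and its exons overlap a lincRNA on the opposite strand. Without brain library 1 *Usp18* was higher by 0.70 (adjusted p = 0.017). *Herc6*, the ligase that attaches *Isg15* in mice, gave 0.02, although its brain libraries lay above the blood libraries by a small step (15.8 to 18 CPM against 14.3 to 14.9 CPM). Its exons share 1269 bases with a processed transcript on the same strand, *Gm45193*, so its counts are uncertain. *Mx1* and *Mx2*, GTPases that block incoming virus, gave -0.57 (adjusted p = 0.171) and 0.70 (adjusted p = 0.191), from 14.3 to 30.5 CPM for *Mx1* and from 2.46 to 6.32 CPM for *Mx2* over the 6 libraries. They share 73 words of 75 bases, 1.71% of those of *Mx1* and 2.01% of those of *Mx2*. *Stat2*, part of the complex that binds the ISRE, gave 0.02 (95% interval -0.56 to 0.61), *Ifi35* gave -0.26 and *Parp14*, an ADP-ribosyltransferase, gave 0.14. The exons of *Ifi35* overlap an antisense transcript over 290 bases, and those of *Parp14* an unclassified transcript on the same strand over 110 bases.

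Between stroke blood and sham blood no ISG passed in edgeR's test, and 1 of the 12664 genes tested did (0.0079%). At an unadjusted p below 0.05 there were 3 members (*Zbp1*, *Ddx60* and *Ifi35*), against 12.5% of all genes. DESeq2 called 1 member, *Zbp1* (log2 fold change 0.74, adjusted p = 0.0274), among 191 genes. *Zbp1* stood at 133, 137 and 122 CPM in sham blood and at 230, 175 and 234 CPM in stroke blood, without overlap. In edgeR it had a log2 fold change of 0.75 (SE 0.17, adjusted p = 0.285), between 0.64 and 0.85 whichever library was left out. *Ddx60* stood at 4.82, 6.39 and 7.74 CPM against 8.11, 13.9 and 12.7 CPM, also without overlap (0.92, SE 0.29, adjusted p = 0.32). The stroke blood libraries lay above the sham libraries in 4 members (*Zbp1*, *Ddx60*, *Ifih1* and *Slfn5*) and below them in 1 (*Oas2*), against 8.23% and 10.5% of all genes. The smallest two-sided p of an exact permutation test with 3 libraries against 3 is 0.1.

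The fitted fold changes of stroke over sham blood were above 0 in 30 of the 36 members, against 46.7% of all genes, with a median of 0.27 over the members and -0.03 over all genes. The members' median moved with single libraries: it was 0.06 without sham blood 3, 0.15 without stroke blood 3 and 0.47 without sham blood 1. No member passed when any single library was left out. For 23 members the 95% interval lay within 2-fold in either direction, and for 13 it reached past, among them *Ifit3* (0.83, from -0.39 to 2.04) and *Ifit2* (0.69, from -0.48 to 1.86). *Isg15* gave 0.39 (from -0.32 to 1.10), *Mx1* 0.71 (from -0.12 to 1.53), *Rsad2* -0.15 (from -0.91 to 0.61) and *Oas3* 0.17 (from -0.21 to 0.54).

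Against sham blood, brain macrophages differed in 4 members. This comparison shares its brain libraries and its sham libraries with those above. *Gbp4* stood at 3.89, 3.95 and 2.49 CPM in sham blood and was higher in the brain by 2.58 (SE 0.40, adjusted p = 0.0052). *Ddx60* stood at 11.6, 13.3 and 14.1 CPM in the brain and was higher by 0.92 (SE 0.26, adjusted p = 0.0429). *Oas3* stood at 202, 221 and 155 CPM in sham blood and was lower in the brain by -0.80 (SE 0.16, adjusted p = 0.0139), and *Slfn5*, at 212, 204 and 208 CPM, was lower by -0.62 (SE 0.13, adjusted p = 0.015). In all 4 the groups did not overlap. Among the 13020 genes tested 12.1% were higher and 7.68% lower, 19.8% in all. With a log2 fold change above 1 as well, 1 member was higher and 0 lower, against 9.75% and 3.67% of all genes. At an unadjusted p below 0.05 there were 10 members, against 34.3%. Brain libraries lay above all sham libraries in 8 members and below them in 2, against 27.4% and 14.2%. The fitted fold change was above 0 in 22 members, against 50.6%, and the medians were 0.17 over the members and 0.01 over all genes.

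These counts against sham blood were not stable. With upper quartile normalization 1 member was higher and 2 lower (33.3% higher against 50% here), and with library size only 4 and 2 (66.7%). *Gbp4* passed in all 6 fits that left out a library, *Slfn5* in 5, *Oas3* in 3 and *Ddx60* in 1. Without brain library 1, 4 were higher and 2 lower, and without brain library 3, 1 and 0. Without sham blood 2 or brain library 2 the counts were 1 and 1, without sham blood 1 they were 3 and 2, and without sham blood 3 they were 1 and 3. The median without sham blood 3 was -0.02. *Ifi44* (2.27, adjusted p = 0.0704), *Ifit2* (1.57, adjusted p = 0.0863), *Ifit3* (1.29, adjusted p = 0.195) and *Oasl1* (1.26, adjusted p = 0.057) had higher log2 fold changes than *Ddx60* and did not pass. DESeq2 called *Ifi44*, *Ifit2*, *Oasl1* and *Gbp2* as well, 6 higher and 2 lower.

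Some ISGs differed several-fold between libraries of the same group. Sham blood library 3 was the lowest of its group in 31 of the 36 members and the lowest of all 9 libraries in 21. In 11 members it lay more than 2-fold below the mean of the other sham libraries, with a median ratio of 1.57 over the members. In every gene some library is lowest, and the same counts over all genes were not made. A trait of the ISGs therefore cannot be told from a trait of the library. *Ifit3* stood at 48.8, 32.1 and 6.82 CPM in sham blood libraries 1 to 3, *Ifit1* at 58.2, 37.7 and 11.4 CPM, *Ifit2* at 57.2, 35.4 and 11 CPM and *Usp18* at 103, 82.3 and 31.8 CPM. *Slfn5* (208 CPM in library 3) and *Zbp1* (122 CPM) did not share this drop, and *Ddx60* was highest there. This library also had the highest summed classical monocyte markers of the 9 (32515 CPM) and the highest summed neutrophil markers (2960 CPM, against 437 to 1344 CPM in the others). Sham blood library 1 had the fewest platelet (16.1 CPM) and erythroid (925 CPM) transcripts among the blood libraries. Whether these cells bear on the ISG levels was not tested.

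Brain library 1 was the lowest of its group in 25 members, and in 6 it lay more than 2-fold below the mean of brain libraries 2 and 3 (*Ifi44*, *Usp18*, *Ifit1*, *Ifit3*, *Oasl1* and *Ifit2*). The median ratio over the members was 1.23. Here too the same counts over all genes were not made. *Gbp4*, *Oas2*, *Mx1*, *Ifih1* and *Oas3* were highest in brain library 1. It also had the lowest summed microglia markers of the brain libraries (1734 CPM against 2814 and 4673 CPM) and the lowest T and NK cell markers (643 CPM against 1212 and 1266 CPM). Its non-classical monocyte markers had the highest sum (4695 CPM against 1699 and 2027 CPM), but *Nr4a1* alone made up 3400 CPM. Of these 7 markers, 1 passed as higher in the brain than in stroke blood and 2 as lower. The sum therefore does not show more cells of that type. The part of any of these cell types in the ISG levels was not tested. Stroke blood library 3 was the highest of its group in 22 members and of all 9 libraries in 11, again without a count over all genes. The members' CPM summed to 4164, 4196 and 2711 in sham blood, 4046, 4016 and 5729 in stroke blood and 3040, 4185 and 3857 in the brain, so the groups overlapped. Without *Ifi27l2a* the sums were 1930 to 3029 in sham blood, 2919 to 3530 in stroke blood and 2427 to 3234 in the brain. The coefficient of variation had a median of 28.2% over the members in sham blood (19.4% over all genes tested), 19.0% in stroke blood (21.3%) and 17.0% in the brain (20.1%). In the brain it ranged from 1.62% in *Zbp1* to 69.6% in *Ifi44*.

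**Figure D4:**
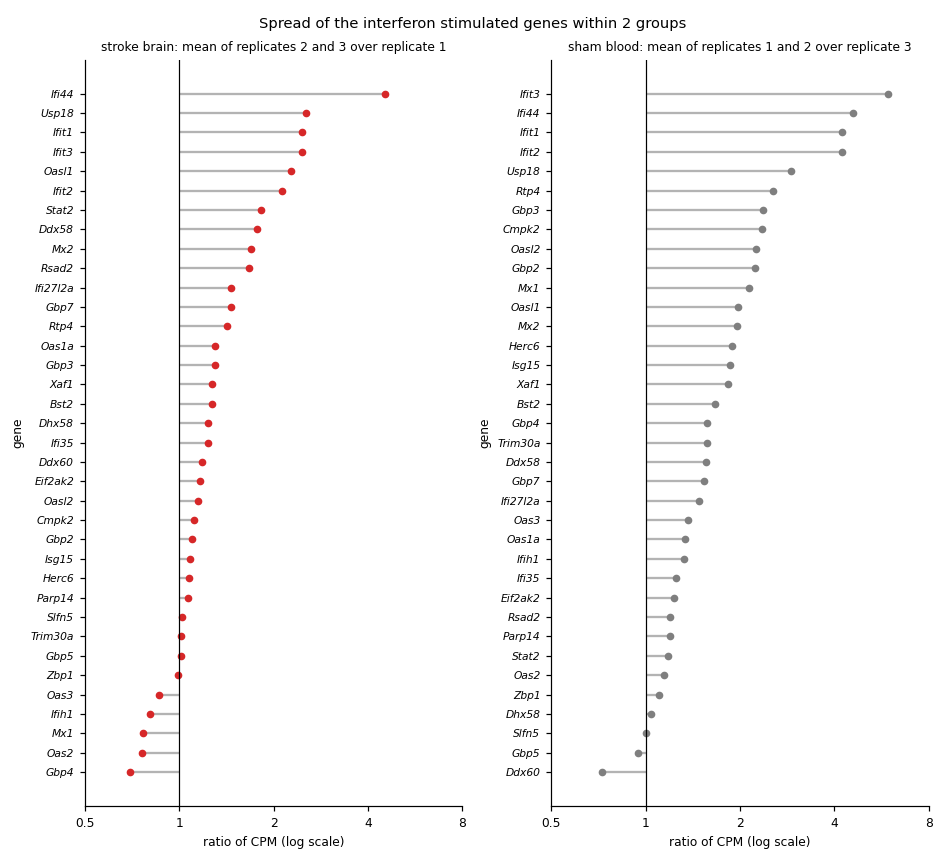
Ratio of CPM within groups (x axis, log scale) for each ISG (y axis). On the left is the mean of brain libraries 2 and 3 over brain library 1, and on the right the mean of sham blood libraries 1 and 2 over library 3. The Ifit genes, Usp18 and Ifi44 lie above 2 in both panels, and 6 genes on the left and 11 on the right lie above 2.

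Genes that carry the interferon signal were taken from a list of 36, of which 32 were tested. Against stroke blood, 8 were higher in the brain (*Tlr3*, *Ifng*, *Jak2*, *Socs3*, *Ifnar1*, *Tbk1*, *Ptpn2* and *Jak1*) and 3 lower (*Irf2*, *Tlr7* and *Irf9*), against 17.5% and 13.1% of all genes. The median log2 fold change of the list was 0.08. Between stroke and sham blood none of the 32 passed in edgeR or DESeq2, and 3 had an unadjusted p below 0.05. Against sham blood, 4 were higher (*Ifng*, *Jak2*, *Tlr3* and *Ifnar1*) and 2 lower (*Irf2* and *Irf9*), against 12.1% and 7.68% of all genes.

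Of the type I ligands, only *Ifna1*, *Ifna2*, *Ifna4* and *Ifnb1* were on the list, and their transcripts were at or near 0. *Ifna1*, *Ifna2* and *Ifna4* had no count in any library, where 3 counts would correspond to 0.133 to 0.162 CPM, and *Ifnb1* reached 0.145 CPM in stroke blood library 1 and 0.139 CPM in brain library 3. *Ifng*, the gene of interferon gamma, stood at 3.04, 0.696 and 0.432 CPM in stroke blood and at 5.54, 7.78 and 15.0 CPM in the brain. It was higher by 2.61 (SE 0.70, adjusted p = 0.0203) without overlap, passed in 3 of the 6 fits that left out a library, and its exons overlap an unclassified transcript on the same strand. Without stroke blood library 1, the highest of its group, the log2 fold change was 3.86 (adjusted p = 0.0053). Of the receptor chains, *Ifnar1* stood at 62.8, 143 and 85.2 CPM in stroke blood and at 188, 232 and 209 CPM in the brain (0.96, SE 0.27, adjusted p = 0.0245). *Ifnar2*, whose exons share 315 bases with *Gm21970* on the same strand, *Ifngr1* and *Ifngr2* did not pass (0.07, -0.07 and -0.14).

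Among the kinases, *Jak2* was higher in the brain, at 17.1, 16.1 and 28.4 CPM in stroke blood and 134, 112 and 94.1 CPM in the brain (2.30, SE 0.26, adjusted p = 0.000327). *Jak1* was higher by 0.48 (SE 0.16, adjusted p = 0.0428) and *Tyk2*, whose exons overlap an antisense transcript over 554 bases, gave -0.04. *Irf9*, part of the ISRE-binding complex with *Stat2*, stood at 189, 184 and 185 CPM in stroke blood and at 111, 135 and 162 CPM in the brain (-0.61, SE 0.17, adjusted p = 0.0248), and 123 bases of its exons are shared with *Rnf31* on the same strand. *Irf2*, a repressor of the response, was lower by -0.92 (SE 0.23, adjusted p = 0.0146). *Irf7*, the factor that amplifies interferon transcription, stood at 413, 356 and 232 CPM in sham blood, at 444, 517 and 545 CPM in stroke blood and at 506, 465 and 465 CPM in the brain. It did not pass in any comparison (0.63 for stroke over sham blood, adjusted p = 0.331). *Irf1*, *Irf3*, *Irf5* and *Irf8* did not pass between brain and stroke blood either, with log2 fold changes from -0.21 to 0.32. The exons of *Jak1*, *Irf1*, *Irf3*, *Irf5* and *Irf7* overlap genes on the opposite strand by 4 to 411 bases.

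The feedback genes held 2 that were higher in the brain than in stroke blood. *Socs3*, an inhibitor of cytokine receptor signaling, stood at 96.3, 104 and 107 CPM in stroke blood and at 248, 298 and 238 CPM in the brain (1.2, SE 0.16, adjusted p = 0.000602). Sham blood library 3 stood at 240 CPM of *Socs3*, within the range of the brain, and the difference from sham blood did not pass (0.73, adjusted p = 0.19). *Ptpn2*, a phosphatase of Jak and Stat proteins, was higher than in stroke blood by 0.64 (SE 0.20, adjusted p = 0.0361), and *Socs1*, *Ptpn6* and *Pias1* did not pass (0.19, -0.11 and 0.32). Of the sensing adaptors and receptors, *Tlr3*, the endosomal receptor for double-stranded RNA, stood at 1.06, 2.37 and 0.917 CPM in stroke blood and at 7.68, 10.7 and 11.6 CPM in the brain (2.63, SE 0.44, adjusted p = 0.0022), and its exons overlap an antisense transcript. *Tbk1*, the kinase that activates *Irf3*, was higher by 0.77 (SE 0.21, adjusted p = 0.0226). *Tlr7*, the receptor for single-stranded RNA, was lower by -0.66 (SE 0.16, adjusted p = 0.0135). *Mavs*, *Tmem173*, *Mb21d1*, *Ikbke*, *Traf3*, *Trim25*, *Tlr9*, *Myd88* and *Ticam1* did not pass, with log2 fold changes from -0.95 (*Tlr9*) to 0.47 (*Mb21d1*). The exons of *Ptpn6*, *Mb21d1*, *Ikbke* and *Myd88* overlap genes on the opposite strand.

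**Figure D5:**
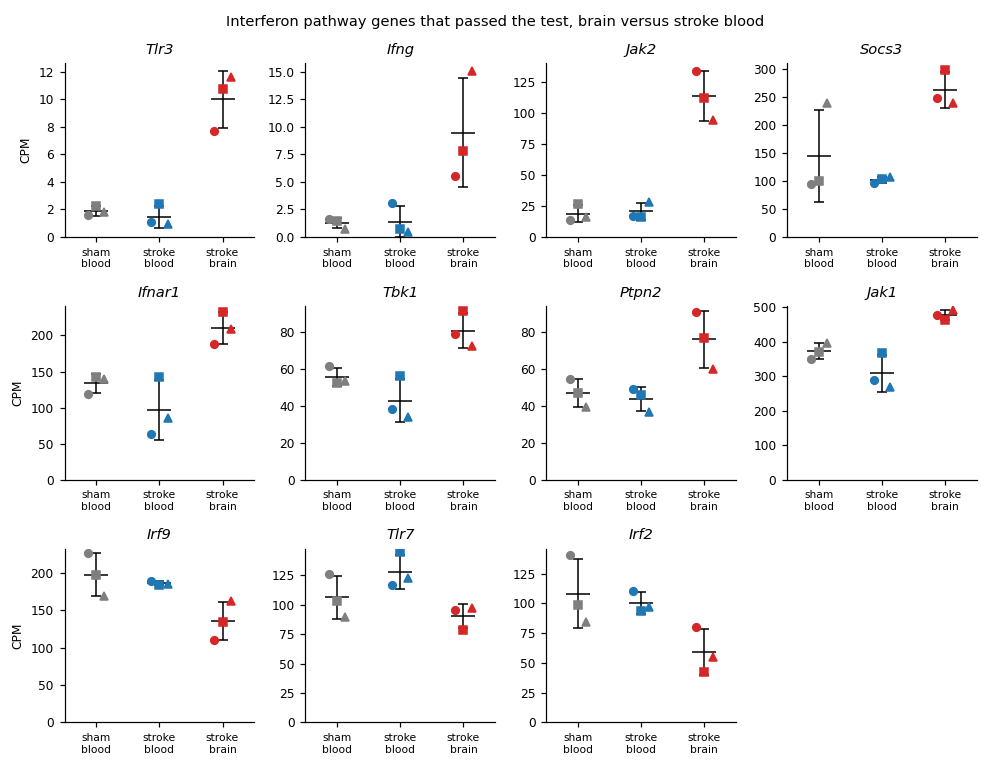
CPM (y axis, from 0) of the 11 interferon pathway genes that passed between brain and stroke blood in the 3 groups (x axis). Circles, squares and triangles are replicates 1, 2 and 3, and bars are the mean ± SD. In Jak2 and Tlr3 the brain libraries lie far above both blood groups, and in Irf9 and Irf2 they lie below.

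Of these 11 pathway calls, *Jak2*, *Socs3* and *Tlr3* passed in each fit that left out a library. The numbers passing fell to 4 higher and 1 lower without stroke blood 1, 3 and 2 without stroke blood 3, 4 and 0 without brain library 2, and 5 and 2 without brain library 3. They were 6 and 3 without stroke blood 2 and 8 and 2 without brain library 1. With library size only, 11 were higher and 2 lower, and with upper quartile normalization 6 and 4.

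A further 66 genes known to respond to interferon were counted beside the members, and 65 were tested between brain and stroke blood. Here 6 were higher in the brain and 20 lower, against 17.5% and 13.1% of all genes, and the median log2 fold change was -0.28 against 0.06 over all genes. *Ifitm1*, which encodes an antiviral membrane protein, stood at 6.75, 5.75 and 3.35 CPM in stroke blood and at 166, 142 and 102 CPM in the brain (4.54, SE 0.30, adjusted p = 2.24e-05). The GTPase gene *Iigp1* stood at 0.917, 0.417 and 0.270 CPM against 5.86, 22.6 and 13.2 CPM (4.53, SE 0.63, adjusted p = 0.000862), and *Cxcl9*, a chemokine gene induced by interferon gamma, at 1.88, 1.72 and 3.35 CPM against 13.1, 16.6 and 13.3 CPM (2.47, SE 0.35, adjusted p = 0.001). All 3 were higher in the brain without overlap, and without stroke blood 1 *Iigp1* gave 5.12 (adjusted p = 0.0034). The lowest fold changes were those of *Trim12c* (-1.96, SE 0.32, adjusted p = 0.0019), *Slfn1* (-1.90, SE 0.17, adjusted p = 7.67e-05) and *Ifitm6* (-1.75, SE 0.21, adjusted p = 0.000423). The exons of *Trim12c* overlap a small nuclear RNA gene. *Slfn1*, a schlafen gene like *Slfn5*, stood at 241, 220 and 275 CPM in stroke blood and at 65.3, 75.3 and 79.3 CPM in the brain.

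Against sham blood 6 of these genes were higher in the brain and 11 lower, against 12.1% and 7.68% of all genes. *Iigp1* (3.93, adjusted p = 0.0139), *Ifitm1* (3.46, adjusted p = 0.0108) and *Cxcl9* (3.29, adjusted p = 0.0028) had the highest log2 fold changes, and *Trim21* (-2.01, adjusted p = 0.0017), *Ube2l6* (-1.89, adjusted p = 0.0265) and *Slfn1* (-1.77, adjusted p = 0.0043) the lowest. Without sham blood 3 *Ifitm1* gave 4.66 (adjusted p = 0.0015), and without sham blood 1 *Iigp1* gave 5.01 (adjusted p = 0.011). Between stroke and sham blood none of the 64 genes tested passed in edgeR, 6 had an unadjusted p below 0.05, and DESeq2 called 1, *Phf11d*, named after its values were seen.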

How the data were processed

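Read quality was inspected by the authors with FastQC (Chipster), HISAT2 was used for alignment to GRCm38 and HTSeq for counting on genes. What they deposited is raw counts per Ensembl identifier, not scaled in any way. Versions, annotation release and strand setting are not given in the sources used here. Without molecular identifiers, a floor of 3 counts reflects counting error only. GENCODE M21 supplied symbols, exon lengths and exon overlaps for 53620 identifiers, 52056 of them with unchanged positions.

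Titles gave the surgery and tissue of each sample. Replicates were compared by chi-square of their counts, which per degree of freedom lay between 26.2 and 151.8, far above sampling noise, and were therefore kept apart. For each pair of groups a quasi-likelihood model was fitted in edgeR 4.0.16 (R 4.3.3) after TMM scaling and filterByExpr, and p-values were adjusted over all genes tested by the Benjamini-Hochberg method. An adjusted p is from this test unless DESeq2 1.42.0 is named. The standard error was taken as the log2 fold change divided by the square root of F. On simulated data for brain versus stroke blood, edgeR called 100 of 100 genes with a log2 change of 2 and 57 of 100 with a change of 1, and 8 unchanged genes among 13134. The simulation gave all genes the same dispersion and changed 200 genes, none of low count. It therefore checks the fit and does not measure the power of the tests here. Tables and figures used Python 3.11.15, pandas 2.3.3 and matplotlib 3.10.9. Counts of genes that share exon bases or words of 75 bases with another gene are uncertain, and the larger shares are given.

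Every member and pathway gene was named, and of the other interferon-induced genes the 3 highest and 3 lowest passing fold changes. A further pathway gene is not reported here. Members and lists were chosen with earlier results of these data known. Alternatives were DESeq2, no filter, a mean of at least 50 counts, scaling by RLE, upper quartile or library size only, a joint fit of all 9 libraries, a block for the replicate number, an adjusted p below 0.01, a change over 2-fold, and leaving out each library.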

Additional observations from a re-analysis of the deposited data

How the results depend on the processing

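Between brain and stroke blood, the 3 members that were higher became 1 at an adjusted p below 0.01 and 1 to 7 when a library was left out, and the 7 that were lower became 2 over 2-fold and 5 to 7 when a library was left out. The median of the members lay between -0.18 and 0.04 when a library was left out. Between stroke and sham blood, DESeq2 called 1 member as higher, leaving out a library called 0 in either direction, and the median then lay between 0.06 and 0.47. Between brain and sham blood, the 2 higher members became 6 with DESeq2, 4 with no filter, with library size only or with all 9 libraries in a single fit, 1 with upper quartile normalization, at an adjusted p below 0.01 or over 2-fold, and 1 to 4 when a library was left out. The 2 lower members became 1 with all 9 libraries, 0 at an adjusted p below 0.01 or over 2-fold, and 0 to 3 when a library was left out, where the median lay between -0.02 and 0.32. The cause was not tested. Where a brain or blood group was left with 2 libraries, its spread was estimated together with the other group's.

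Replicate numbers did not pair the libraries: the deviations of same-numbered libraries from their group means correlated between -0.0702 and 0.0663. With the replicate number as a block, 3 members were higher and 8 lower between brain and stroke blood, 0 and 0 between stroke and sham blood, and 1 and 2 between brain and sham blood.

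No passing gene named in the report turned its direction under any alternative run. Of members that did not pass, 9 of 26, 13 of 36 and 8 of 32 had a fold change near 0 that changed sign under some alternative (brain versus stroke blood, stroke versus sham blood and brain versus sham blood), none of them passing there. With no filter on low counts, 207 genes passed between stroke and sham blood, none of them a member. Depth was alike in all libraries. The standard error of a member's log2 fold change had a median of 0.24, 0.29 and 0.27 in the 3 comparisons and reached 0.60, 0.61 and 0.75. Differences of 2-fold or less could therefore be missed, and larger ones in the members with a large standard error.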
